A study of Mus musculus with 33 samples.

Results

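Tumour RNA was compared between mice given RP-6306 and mice given vehicle, in the set of samples whose titles end in _7. The members were chosen by those titles and by the treatment field, which gave 4 RP-6306 and 3 vehicle tumours, 7 of the 33 samples of the series. RP-6306 is an inhibitor of the kinase PKMYT1. Per the labels, the RP-6306 group consisted of mammary tumours of FVB genotype in mice dosed with 20 mg/kg, and the vehicle group of mammary tumours of the same genotype in mice given vehicle. The treatment field carries a twice-daily abbreviation, whereas the treatment protocol gives that dose per day. All 7 tumours had been transplanted into mice, and the design text of the series describes the treated tumours as coming from cyclin E transgenic mice. The promoter of the transgene, the donor tumour, the host, its age, the length of treatment and the meaning of the suffix are not given in the sources used here. Replicates were numbered in accession order, so that the numbers only name a tumour. Nothing in the labels states that each sample is a different animal, and a p-value therefore covers only the sample-to-sample spread, which may be technical.

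PKMYT1 and its relative WEE1 place inhibitory phosphates on CDK1, the kinase that starts mitosis, and CDC25 phosphatases remove them. Cyclin B and cyclin A activate CDK1, while cyclin E activates CDK2 at the start of S phase. Loss of PKMYT1 activity is known to release CDK1 too early in cells with high cyclin E, which then enter mitosis with unfinished replication. Much of this control acts on protein, so messenger RNA reports on it only in part.

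The libraries held 26517748 to 34637096 counts, and 16699 genes passed the filter on low counts. Both groups had high levels of mesenchymal transcripts and low levels of epithelial ones. On a per-length scale, Vim, the mesenchymal filament protein vimentin, averaged 930 ± 79.5 CPM per kilobase of exon in RP-6306 tumours and 938 ± 35.2 in vehicle tumours (SD, n = 4 and 3). Epcam, an adhesion protein of epithelium, averaged 1.81 ± 0.761 on the same scale in RP-6306 tumours and 2.28 ± 2.01 in vehicle tumours. Krt8, a luminal keratin, ranged from 2.35 to 10.4 CPM per kilobase over the 7 libraries. The basal keratin Krt5 ranged from 0 to 1.77, and Krt14, also a basal keratin, from 2.84 to 16.0. These markers of epithelium, which usually define a mammary carcinoma, were thus at low level beside Vim in every library.

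Several libraries stood apart from the rest of their group. The first principal component took 32.3% of the variance and placed RP-6306 tumour 2 at -65.8 and vehicle tumour 2 at 52.2, with the other 5 libraries between -6.17 and 14.2. The lowest correlation between any 2 libraries was between these 2, at 0.951, and the highest was 0.985, between RP-6306 tumours 1 and 4. RP-6306 tumour 2 held 21.3% and vehicle tumour 2 20.8% of the tested genes at their highest level of the 7 libraries, against 7.14% to 13.8% in each of the others. RP-6306 tumour 2 was also the most deeply sequenced library and had a count for the fewest genes, 19528, against 20348 to 22528 in the others. Results that turn on either library are given with and without it.

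No gene passed a Benjamini-Hochberg adjusted p of 0.05 in edgeR's quasi-likelihood test, a share of 0%. The smallest adjusted p was 0.113. Without adjustment, 1033 genes (6.19%) had an edgeR p under 0.05, of which 426 (2.55%) were higher and 607 (3.63%) lower in RP-6306 tumours. All 4 RP-6306 tumours lay above all 3 vehicle tumours in 516 genes (3.09%), and below them in 605 genes (3.62%), which makes 1121 genes without overlap in either direction (6.71%). Groups of 4 and 3 also separate by chance for some genes, and these shares were not tested against chance. The 95% interval of the fold change lay within a 2-fold change in either direction for 12176 genes (72.9%), so for most genes a larger change was outside the interval. DESeq2, run as an alternative, called 47 of 16352 genes (0.287%), 14 higher (0.0856%) and 33 lower (0.202%), and in 45 of these the groups did not overlap. The limma voom fits, with and without sample weights, called 0 genes, and edgeR without the filter called 6 of 26504 (0.0226%).

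The gene with the smallest p was Rnf150, which encodes a RING finger protein predicted to act as a ubiquitin ligase and lies on chromosome 8 at 82863356 to 83091268 (GRCm38, plus strand). It had 27.1, 25.6, 21.9 and 23.7 CPM in RP-6306 tumours 1 to 4, against 67.4, 53.4 and 47.6 CPM in vehicle tumours 1 to 3. The log2 fold change was -1.19 ± 0.14 (SE), with a 95% interval of -1.50 to -0.88, an edgeR quasi-likelihood adjusted p of 0.113 and a DESeq2 adjusted p of 6.65e-10. The 4 RP-6306 values were close to each other and all lay under the vehicle values. Among genes that were higher in RP-6306 tumours, the smallest p belonged to Serping1, the C1 inhibitor that restrains the complement cascade, on chromosome 2 at 84765387 to 84775444 (minus strand). Its level was 79.4, 96.4, 95.5 and 72.9 CPM in RP-6306 tumours, against 40.4, 41.0 and 50.9 CPM in vehicle tumours. The log2 fold change was 0.96 ± 0.14, with an interval of 0.66 to 1.27 and a DESeq2 adjusted p of 2.61e-06, while the adjusted p from edgeR's quasi-likelihood test was 0.344.

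The other higher genes with the smallest p follow. Siglecg, an inhibitory receptor that binds sialic acid on B cells and other leukocytes, had 14.4, 21.8, 21.6 and 14.1 CPM in RP-6306 tumours, against 8.24, 6.37 and 6.84 CPM in vehicle tumours (log2 fold change 1.33 ± 0.21). The monocyte chemokines Ccl12 and Ccl7 had log2 fold changes of 1.03 ± 0.18 and 0.66 ± 0.14. Ccl12 was at 148, 133, 133 and 103 CPM in RP-6306 tumours, against 71.2, 45.8 and 72.8 CPM in vehicle tumours. Slfn4, a Schlafen family gene of myeloid cells, was 1.42 ± 0.30 higher on the log2 scale, at 49.6 to 100 CPM in RP-6306 tumours, against 16.1 to 34.3 CPM in vehicle tumours. Col15a1, a basement membrane collagen, was at 143 to 163 CPM in RP-6306 tumours, against 56.4 to 104 CPM in vehicle tumours (0.97 ± 0.18). Serpine2, an inhibitor of serine proteases (1.06 ± 0.19), Frem1, a matrix protein (1.53 ± 0.33), Prg4, the lubricant proteoglycan (1.87 ± 0.38), and Aoc3, an amine oxidase of vessels and fat (1.02 ± 0.20), were also higher in each RP-6306 tumour than in any vehicle tumour.

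Of the lower genes with the smallest p, Map3k1, a kinase upstream of JNK, was at 30.0 to 31.9 CPM in RP-6306 tumours, against 40.7 to 47.4 CPM in vehicle tumours (-0.49 ± 0.10). The difference was small, as was the spread between the 4 RP-6306 tumours, and no value overlapped. A small spread is part of what gives a small p, so it is no separate support. Atf3, a transcription factor induced by stress, had 7.31, 6.52, 7.04 and 6.15 CPM in RP-6306 tumours, against 16.4, 25.1 and 9.58 CPM in vehicle tumours (-1.34 ± 0.27). Hspa1a, the inducible heat shock protein HSP70, had 9.11, 4.57, 8.32 and 7.86 CPM in RP-6306 tumours, against 19.5, 26.1 and 13.3 CPM in vehicle tumours (-1.40 ± 0.27). Hspa1a is nearly identical to Hspa1b, so the split of reads between them is uncertain. Others of these genes were Slc2a3, the glucose transporter GLUT3, Arsb, a lysosomal sulfatase (-0.68 ± 0.12), Kbtbd11, a kelch repeat protein (-0.76 ± 0.14), Tbc1d9, of a family of Rab GTPase-activating proteins (-0.64 ± 0.12), and Zfp395, a zinc finger protein (-0.75 ± 0.15). Tbc1d9 lies close to Rnf150, on chromosome 8 at 83165352 to 83272934 (plus strand). Whether their lower levels share a local cause was not tested. For the 20 genes with the smallest p, 10 in each direction, the edgeR quasi-likelihood adjusted p lay between 0.113 and 0.662, and DESeq2 called every one, with adjusted p up to 0.0115. DESeq2's 10 smallest adjusted p belonged to Rnf150, Serping1, Siglecg, Ccl12, Slc2a3, Serpine2, Col15a1, Prg4, Slfn4 and Arsb.

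**Figure D1:**
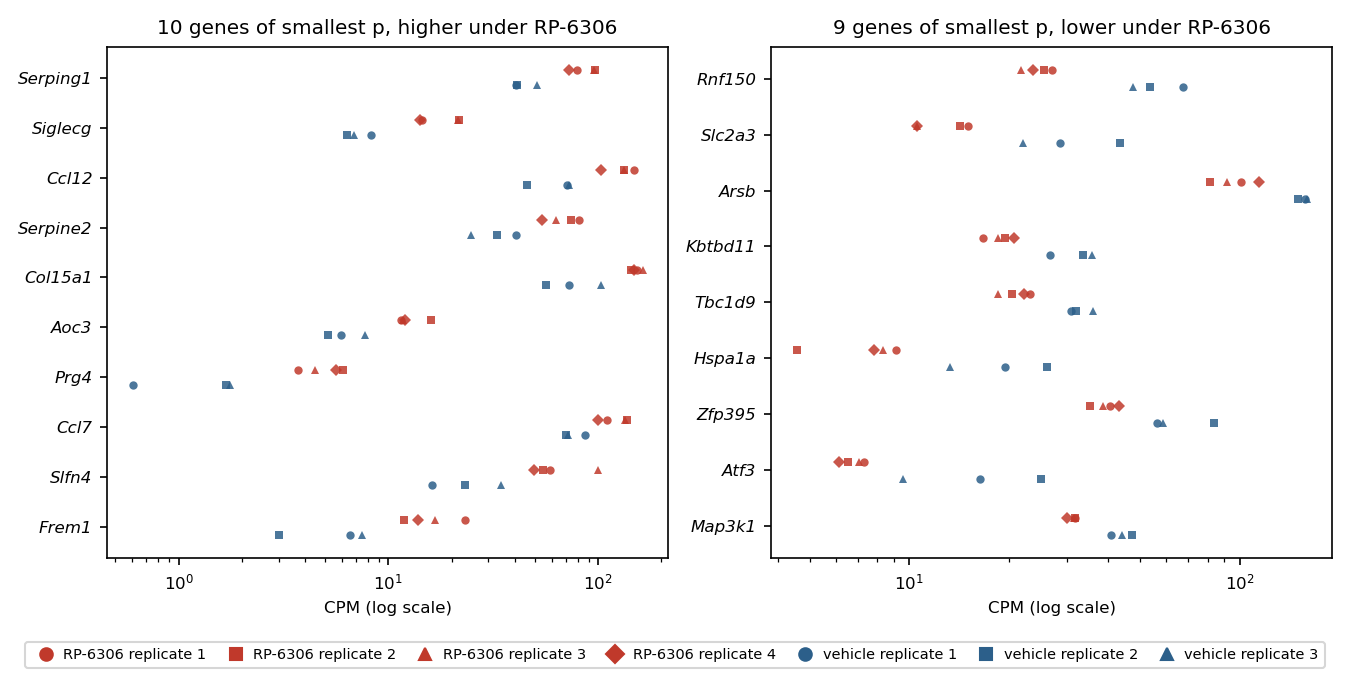
Level of 19 of the 20 genes with the smallest edgeR p in each of the 7 tumours, in CPM on a log scale. The 10 higher genes are on the left and 9 lower genes on the right, red symbols are RP-6306 tumours, drawn above the blue vehicle tumours of the same gene, and the shape gives the replicate. For each of these genes the red and blue values do not overlap, for example 21.9 to 27.1 CPM in RP-6306 tumours, against 47.6 to 67.4 CPM in vehicle tumours for Rnf150.

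Genes of the CDK1 switch, which the drug's target belongs to, did not separate the groups. All 15 listed members were tested, 0 had an unadjusted p under 0.05 in either direction, and the median log2 fold change was 0.17 beside 0.01 over all tested genes. That median was 0.05 without vehicle tumour 2, and without both vehicle tumour 2 and RP-6306 tumour 2 it was -0.04. Pkmyt1 itself had 21.1, 25.7, 32.2 and 29.2 CPM in RP-6306 tumours, against 24.4, 16.0 and 33.3 CPM in vehicle tumours, and its interval ran from -0.38 to 0.66 on the log2 scale. Cdk1 had 55.6, 95.9, 88.4 and 73.5 CPM in RP-6306 tumours, against 81.0, 56.3 and 74.8 CPM in vehicle tumours, with an interval of -0.28 to 0.57. The groups overlapped for both genes, and RP-6306 tumour 1 and vehicle tumour 2 held the lowest Cdk1 values. Wee1, the other inhibitory kinase, had an interval of -0.38 to 0.34. The activators Ccnb1 and Ccnb2, which encode B-type cyclins, and Ccna2, which encodes cyclin A, had log2 fold changes of 0.19, 0.18 and 0.15, each with an interval that included 0.

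The phosphatases that reverse PKMYT1 had small positive values. Cdc25a had 41.4, 41.7, 45.2 and 42.8 CPM in RP-6306 tumours, against 39.0, 33.4 and 40.7 CPM in vehicle tumours. All RP-6306 values lay above all vehicle values, as in 3.09% of all tested genes, and the interval was -0.06 to 0.42. Cdc25b and Cdc25c had log2 fold changes of 0.12 and 0.14. The kinases and cofactors that turn CDC25 on, Plk1, Aurka and Bora, were at 0.25, 0.25 and 0.17. The CDK-binding proteins Cks1b and Cks2 were at 0.19 and 0.30, and Ccnf, which encodes the ubiquitin ligase subunit cyclin F, was at 0.01. Over the CDK1 and cyclin E genes together, the highest upper bound was 0.80, for Cks2, and the lowest lower bound was -0.73, for Rb1.

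Genes of the cyclin E arm showed as little difference apart from Rb1. Ccne1 had a log2 fold change of 0.11 (interval -0.45 to 0.68) and Ccne2 of -0.17 (-0.63 to 0.29), and both encode cyclin E proteins. Its partner kinase gene Cdk2 was at 0.16, the CDK inhibitor genes Cdkn1a and Cdkn1b at -0.12 and -0.14, Fbxw7, whose product marks cyclin E for degradation, at -0.03, and E2f1, E2f2 and E2f3, transcription factors that cyclin E activity releases, at 0.04, 0.04 and -0.08. Rb1, which encodes the retinoblastoma protein that restrains E2F factors, had 27.0, 23.6, 29.6 and 30.2 CPM in RP-6306 tumours, against 33.1, 44.4 and 31.3 CPM in vehicle tumours. It was the 1 member of 12 with an unadjusted p under 0.05 (lower, as 3.63% of all genes), at -0.39 ± 0.15, and its values did not overlap. Its log2 fold change was -0.22 without vehicle tumour 2 and -0.32 without RP-6306 tumour 2, and in both fits 0 of 12 members had an unadjusted p under 0.05 and a lower level. The adjusted p was 0.772 in edgeR's quasi-likelihood test.

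**Figure D2:**
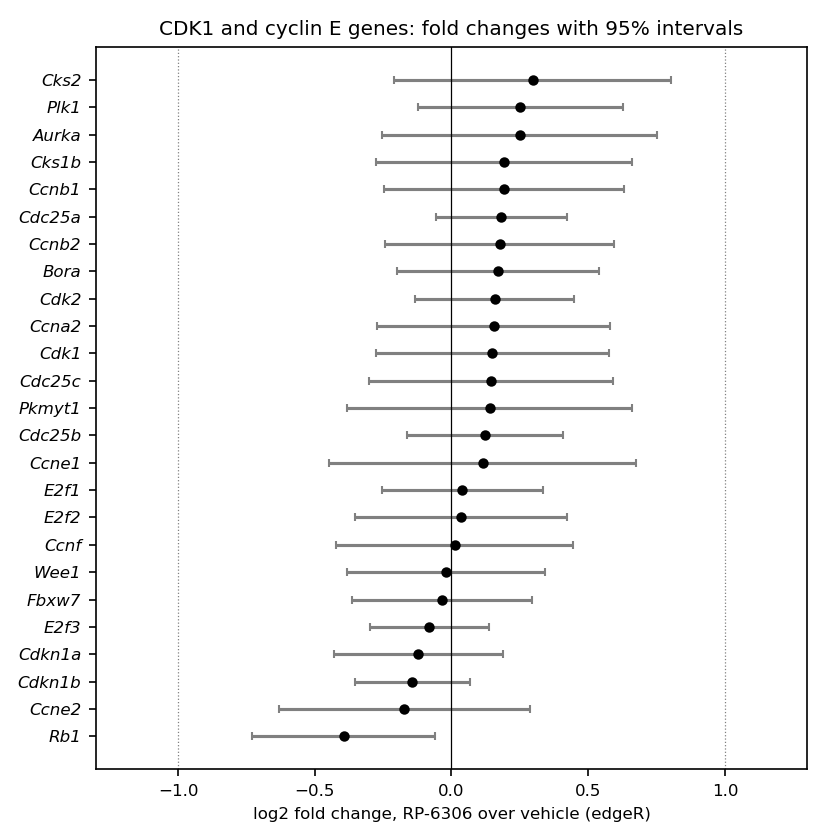
Fold change of each gene of the CDK1 and cyclin E lists on a log2 scale, RP-6306 over vehicle, with the point at the edgeR estimate and the bar as its 95% interval. Dotted lines mark a 2-fold change. No interval reaches a dotted line, and only the interval of Rb1 (-0.73 to -0.06) does not include 0.

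Proliferation genes followed the same pattern, and their small positive medians depended on which libraries were kept. Of 35 tested G2/M and mitosis genes, 34 had a positive fold change beside 51.3% of all genes, 0 had an unadjusted p under 0.05, and the median log2 fold change was 0.11. Their summed level was 2295, 3214, 3534 and 2902 CPM in RP-6306 tumours, against 3045, 2266 and 3012 CPM in vehicle tumours. The lowest sums were in vehicle tumour 2 and RP-6306 tumour 1. Without vehicle tumour 2 the median was -0.01 and 16 of the 35 were positive. Without RP-6306 tumour 3 it was 0.01 and 21 of the 35 were positive. The 3 members with the smallest p were Pttg1 (securin), at 0.39 ± 0.27, Espl1 (separase, which cuts cohesin at anaphase), at 0.21 ± 0.15, and Kif4 (a chromosome motor), at 0.22 ± 0.18. Of 36 tested G1/S and replication genes, 31 were positive with a median of 0.09, and 5 were positive with a median of -0.06 without vehicle tumour 2. The median was 0.01 with 20 positive without RP-6306 tumour 2, and 0.03 with 23 positive without RP-6306 tumour 3. The single-strand binding subunit gene Rpa2 was at 0.19 ± 0.18, and Gins3, of the replicative helicase, at 0.21 ± 0.20.

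Genes that answer DNA damage or arrest were also close to 0. The median was 0.01 over 30 DNA repair and checkpoint genes, of which 0 had an unadjusted p under 0.05, -0.02 over 24 p53 targets, of which 1 did, and 0.11 over 16 tested histone genes, of which 0 did. Among all tested genes, 6.19% did. The p53 target below that threshold was Sesn1, an antioxidant sestrin, at -0.30 ± 0.13. In the BCL2 family, 1 of 15 tested genes had an unadjusted p under 0.05 (lower, as 3.63% of all genes). It was Bmf, which promotes cell death, at 15.1, 12.7, 10.6 and 10.6 CPM in RP-6306 tumours, against 16.1, 19.5 and 18.7 CPM in vehicle tumours. Sesn1 and Bmf were named after their values had been seen.

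The list with the lowest median was the response to hypoxia. When oxygen is short, the factor HIF is no longer marked for degradation by prolyl hydroxylases and binds a short core motif, ACGTG or GCGTG, near genes of glucose uptake, glycolysis, vessel growth and pH control. Solid tumours often have poorly supplied regions in which this response is on. The promoters of 4 genes are shown, each with 250 bases before and 50 after the start that RefSeq gives on GRCm38.p6. They are those of the hypoxia and glycolysis genes that DESeq2 called and that have an entry in the promoter table. Capitals mark either motif on the strand printed, or its reverse complement (CACGT or CACGC) where the motif lies on the other strand. Pfkfb3 is at chr2:11553880-11554179 (minus strand), Ak4 at chr4:101419039-101419338 (plus strand), Eno2 at chr6:124769624-124769923 (minus strand) and Egln3 at chr12:54203825-54204124 (minus strand).
Pfkfb3: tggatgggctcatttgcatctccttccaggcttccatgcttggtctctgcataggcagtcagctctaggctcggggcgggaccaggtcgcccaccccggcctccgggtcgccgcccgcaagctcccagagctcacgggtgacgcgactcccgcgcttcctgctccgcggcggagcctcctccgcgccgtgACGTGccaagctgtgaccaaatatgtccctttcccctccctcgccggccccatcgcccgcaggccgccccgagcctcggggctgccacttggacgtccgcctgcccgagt
Ak4: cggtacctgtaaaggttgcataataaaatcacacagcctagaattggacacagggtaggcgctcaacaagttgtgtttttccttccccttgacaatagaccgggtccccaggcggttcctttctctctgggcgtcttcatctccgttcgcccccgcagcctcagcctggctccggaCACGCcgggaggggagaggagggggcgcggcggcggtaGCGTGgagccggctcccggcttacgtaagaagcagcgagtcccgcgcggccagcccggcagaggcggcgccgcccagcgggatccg
Eno2: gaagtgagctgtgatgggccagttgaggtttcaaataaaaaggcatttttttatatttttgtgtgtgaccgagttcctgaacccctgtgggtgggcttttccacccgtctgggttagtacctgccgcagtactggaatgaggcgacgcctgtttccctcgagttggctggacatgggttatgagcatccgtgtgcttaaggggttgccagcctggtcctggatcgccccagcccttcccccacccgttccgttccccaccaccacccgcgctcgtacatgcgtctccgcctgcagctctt
Egln3: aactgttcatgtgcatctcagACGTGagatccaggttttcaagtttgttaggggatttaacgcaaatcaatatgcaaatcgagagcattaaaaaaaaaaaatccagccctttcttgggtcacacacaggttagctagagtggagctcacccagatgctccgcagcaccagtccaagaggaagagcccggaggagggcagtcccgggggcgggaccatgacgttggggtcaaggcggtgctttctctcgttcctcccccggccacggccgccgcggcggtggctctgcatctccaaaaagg
The window holds 1 motif in Pfkfb3, 2 in Ak4, 0 in Eno2 and 1 in Egln3. Of the 22 hypoxia genes with a promoter entry, 19 held at least 1 (86.4%), as did 14 of 20 glycolysis genes (70%). The share was 61.4% of the 11285 tested genes with an entry and 43.8% of all 27025 promoters. These are matches of letters and not sites shown to be bound.

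All 30 listed hypoxia genes were tested. A negative fold change was found for 29, beside 48.7% of all genes, and the median log2 fold change was -0.66. An unadjusted p under 0.05 with a lower level was found for 22 of 30, beside 3.63% of all genes, and for 11 of 30 all RP-6306 values lay under all vehicle values, beside 3.62%. None passed the adjusted edgeR quasi-likelihood test, and DESeq2 called 4, Slc2a3, Pfkfb3, Ak4 and Egln3. The summed level of the list was 2326, 1853, 1854 and 2023 CPM in RP-6306 tumours, against 2874, 4796 and 2305 CPM in vehicle tumours. Vehicle tumour 2 was far above the rest, and RP-6306 tumour 1 and vehicle tumour 3 were at nearly the same level.

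Among genes for the use of glucose and energy, Slc2a3, the glucose transporter GLUT3, had 15.1, 14.3, 10.6 and 10.6 CPM in RP-6306 tumours, against 28.6, 43.5 and 22.1 CPM in vehicle tumours. Its log2 fold change was -1.32 ± 0.23, with an interval of -1.83 to -0.80, an edgeR quasi-likelihood adjusted p of 0.545 and no overlap. Pfkfb3, which makes an allosteric activator of glycolysis, had 35.6, 32.8, 28.0 and 36.9 CPM in RP-6306 tumours, against 55.5, 94.6 and 49.0 CPM in vehicle tumours (-0.99 ± 0.21). Here too the groups were apart, with vehicle tumour 2 highest. Ak4, a mitochondrial adenylate kinase, had 32.5, 36.0, 36.1 and 27.4 CPM in RP-6306 tumours, against 47.0, 58.5 and 46.9 CPM in vehicle tumours (-0.62 ± 0.13). For Ak4 the vehicle tumours differed less among themselves than for the other genes of the list just given. Slc2a1, the transporter GLUT1, was at 105 to 164 CPM in RP-6306 tumours and overlapped. Its vehicle values, sorted by level and not by replicate, were 147, 227 and 470 CPM. Pdk1, the kinase that keeps pyruvate out of mitochondria, was at 66.2 to 87.2 CPM in RP-6306 tumours and overlapped at its edge. Its vehicle values, again sorted by level, were 86.8, 127 and 194 CPM.

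Genes of oxygen sensing, pH control and blood supply were among the lower ones. Egln3, a prolyl hydroxylase that marks HIF and is itself a HIF target, had 55.0, 35.9, 27.8 and 40.0 CPM in RP-6306 tumours, against 102, 163 and 54.1 CPM in vehicle tumours (-1.43 ± 0.33). RP-6306 tumour 1 and vehicle tumour 3 met for this gene. Egln1, the main oxygen sensor of this family, was at 87.2 to 110.3 CPM in RP-6306 tumours (-0.60 ± 0.16). Its vehicle values, sorted by level and not by replicate, were 111, 138 and 183 CPM. Car9, a carbonic anhydrase of the cell surface, had 7.09, 2.53, 5.64 and 4.53 CPM in RP-6306 tumours, against 8.81, 16.1 and 10.1 CPM in vehicle tumours (-1.24 ± 0.33) and did not overlap. The vascular growth factor gene Vegfa was at 121 to 231 CPM in RP-6306 tumours (-0.66 ± 0.29). Its vehicle values, again sorted by level, were 172, 205 and 375 CPM, and its groups overlapped. Adm, a vasodilator peptide gene, had the largest fold of the list, -1.69 ± 0.51, at 12.1, 10.9, 5.61 and 3.38 CPM in RP-6306 tumours, against 14.5, 48.7 and 14.2 CPM in vehicle tumours. Without vehicle tumour 2 the log2 fold change of Adm was -0.84. Angptl4, a regulator of lipoprotein lipase, was the 1 gene with a positive value, 0.23 ± 0.17. Hypoxia genes outside the 3 with the smallest p were named after their values had been seen.

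Much of the size of this difference came with vehicle tumour 2, which had the highest level of 25 of the 30 genes. Without it the median was -0.38, 28 of 30 were negative, 14 of 30 had an unadjusted p under 0.05 and were lower (1.94% of all genes in that fit), and 11 of 30 did not overlap (6.04%). Without vehicle tumour 3 the median was -0.86, and without each of the other libraries in turn it ran from -0.77 to -0.63. The same vehicle tumour 2 had the highest sum of fibroblast and collagen genes, 63032 CPM against 35764 to 49222 CPM in the other 6 libraries, and the lowest sums of G1/S and G2/M genes. Their part in the hypoxia result was not tested.

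Glycolysis genes had a median of -0.38, with all 20 tested. A lower level with an unadjusted p under 0.05 was found for 10 of 20, beside 3.63% of all genes, and 7 of 20 lay below the vehicle values without overlap, beside 3.62%. The sums were 5695, 6147, 5894 and 5585 CPM in RP-6306 tumours, against 6934, 8755 and 5872 CPM in vehicle tumours. Vehicle tumour 3 lay within the RP-6306 range, and 16 of the 20 genes were highest in vehicle tumour 2. Without that tumour the median was -0.19, and 6 of 20 were lower with an unadjusted p under 0.05, beside 1.94% of all genes in that fit. The enolase gene Eno2 had 83.7, 72.1, 57.9 and 71.1 CPM in RP-6306 tumours, against 117, 239 and 108 CPM in vehicle tumours (-1.12 ± 0.25) and was called by DESeq2. Slc16a3, which exports lactate, was at 201, 239, 216 and 183 CPM in RP-6306 tumours, against 267, 389 and 269 CPM in vehicle tumours (-0.55 ± 0.15), and the aldolase gene Aldoc was at 3.11 to 4.22 CPM in RP-6306 tumours, against 4.40 to 8.35 CPM in vehicle tumours (-0.90 ± 0.25). For all 3 genes the groups did not overlap. Nuclear genes of oxidative phosphorylation had a positive value for 35 of 37, a median of 0.12 and 0 at an unadjusted p under 0.05. Of the 37, 27 were highest in RP-6306 tumour 2. The median was 0.05 without vehicle tumour 2. Without RP-6306 tumour 2 it was 0.04 with 28 of 37 positive, and without both it was -0.04 with 10 of 37 positive.

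**Figure D3:**
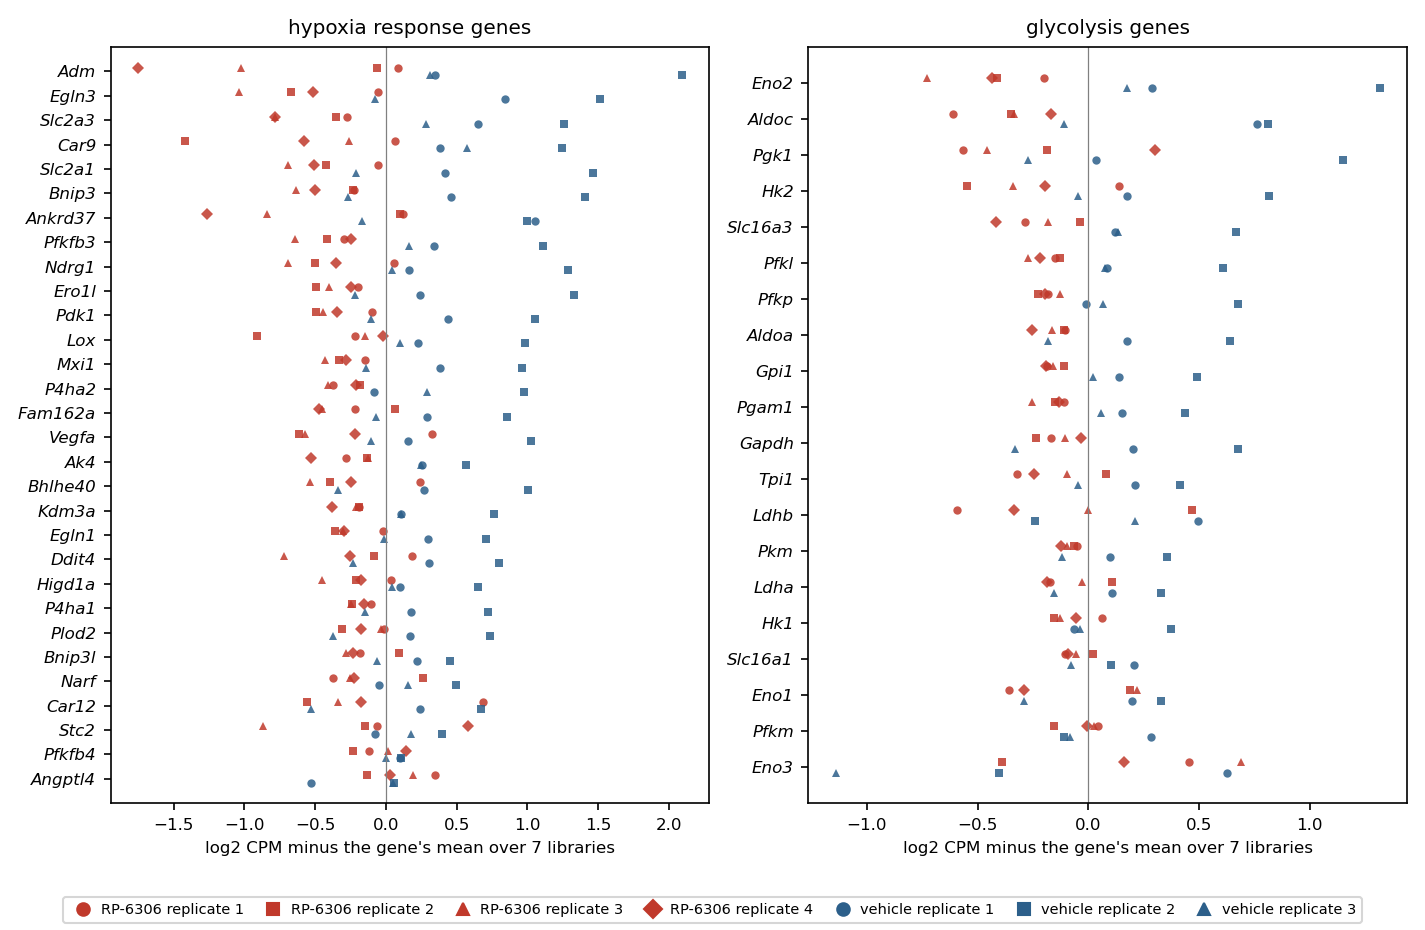
Level of each hypoxia gene (left) and glycolysis gene (right) in each tumour, as log2 CPM minus the mean of that gene over the 7 libraries. Red symbols are RP-6306 tumours, drawn above the blue vehicle tumours, and the shape gives the replicate. The blue squares, vehicle tumour 2, lie farthest right in 25 of 30 hypoxia genes and 16 of 20 glycolysis genes, and the blue triangles, vehicle tumour 3, lie nearest to the red symbols in many of them.

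Of genes induced within minutes of a stimulus, a few had lower values. Of 22 tested immediate early genes, 16 had a negative value (48.7% of all genes) and 4 were lower with an unadjusted p under 0.05 (3.63%). Atf3 and Jun, 2 of the 22, lay below the vehicle values without overlap (3.62%), and the median was -0.17. Egr1, a zinc finger factor, was at -0.49 ± 0.17, and Fosl2, a partner of Jun in AP-1, at -0.56 ± 0.21. With libraries left out, Egr1 ran from -0.64 to -0.22 and Fosl2 from -0.73 to -0.18. Vehicle tumour 2 held the highest level of 13 of the 22 genes. Without that tumour the median was -0.02 and 2 were lower with an unadjusted p under 0.05 (1.94% of all genes in that fit). Among 23 heat shock and chaperone genes the median was 0.07 and 2 were lower with an unadjusted p under 0.05 (3.63% of all genes), the near-identical pair Hspa1a and Hspa1b. Hspa1b was at 37.3, 17.7, 30.0 and 31.0 CPM in RP-6306 tumours, against 40.4, 74.9 and 34.5 CPM in vehicle tumours (-0.78 ± 0.29). The log2 fold change of Hspa1b was -0.37 without vehicle tumour 2, and 1 of the 2 was then no longer under that threshold. Hspb8, a small heat shock protein gene, was at 0.19 ± 0.09.

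Interferon-stimulated genes all had positive values, with a wide spread in both groups, and most did not pass an unadjusted test. Interferons switch these genes on through receptors at the cell surface, and their products block viral replication and sense foreign or misplaced nucleic acid. All 42 tested members had a positive value and the median was 0.47. An unadjusted p under 0.05 with a higher level was found for 12 of 42, beside 2.55% of all genes, and 1 of 42 did not overlap, beside 3.09%. The sums were 2429, 3709, 3558 and 2419 CPM in RP-6306 tumours, against 2075, 1688 and 2896 CPM in vehicle tumours. RP-6306 tumours 2 and 3 were high, and vehicle tumour 3 lay above RP-6306 tumours 1 and 4.

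The member with the smallest p was Mx1, an antiviral GTPase, which also was the gene without overlap. It had 41.3, 47.4, 56.4 and 41.0 CPM in RP-6306 tumours, against 21.7, 20.9 and 40.5 CPM in vehicle tumours (0.75 ± 0.23, edgeR quasi-likelihood adjusted p 0.713). Vehicle tumour 3 was just under the lowest RP-6306 tumour. Oasl1, of the oligoadenylate synthetase family, was at 35.6 to 58.1 CPM in RP-6306 tumours, against 20.0 to 38.1 CPM in vehicle tumours (0.73 ± 0.24), and Rsad2, which makes the antiviral enzyme viperin, at 29.9 to 42.5 CPM in RP-6306 tumours, against 17.5 to 32.4 CPM in vehicle tumours (0.64 ± 0.21). Without RP-6306 tumour 2 the median of the list was 0.34 with 5 of 42 higher at an unadjusted p under 0.05 (2.35% of all genes in that fit). Without vehicle tumour 2 it was 0.29 with 3 of 42 (1.76%), and without both it was 0.19 with 0 of 42 (2.39%). Without vehicle tumour 3 it was 0.70 with 32 of 42 (4.66%). The count was 2 of 42 without vehicle tumour 1, 5 without RP-6306 tumour 3, 23 without RP-6306 tumour 1 and 19 without RP-6306 tumour 4. For these fits the share of all genes is not given, so their counts have no background beside them.

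Lists of lymphocyte markers had positive medians, and that of B and plasma cells rested mostly on 1 RP-6306 tumour. In bulk tissue, fewer or more cells of a type cannot be told apart from less or more RNA per cell. B and plasma cell genes gave the highest median of all lists, 1.97 over the 12 tested of 24, of which 7 were higher with an unadjusted p under 0.05 (2.55% of all genes), and 1, Cd22, lay above the vehicle values without overlap (3.09%). Their sum was 31.2, 581, 68.8 and 63.9 CPM in RP-6306 tumours, against 63.1, 33.5 and 86.1 CPM in vehicle tumours. Except in RP-6306 tumour 2 the 2 groups covered the same range. Igkc, an antibody light chain gene, had 1.09, 161, 6.88 and 4.07 CPM in RP-6306 tumours, against 2.65, 1.40 and 3.57 CPM in vehicle tumours. Ighg1, an antibody heavy chain gene, had 0.412, 119, 2.10 and 2.39 CPM in RP-6306 tumours, against 0.416, 0.0650 and 0.309 CPM in vehicle tumours, with a log2 fold change of 6.89 ± 2.14. Cd22, an inhibitory receptor of B cells, had 4.72, 15.8, 3.44 and 4.22 CPM in RP-6306 tumours, against 1.51, 3.19 and 2.34 CPM in vehicle tumours (1.59 ± 0.55). Without RP-6306 tumour 2 the median was 0.67 over 11 tested genes and 2 of 11 were higher with an unadjusted p under 0.05 (2.35% of all genes in that fit). Without vehicle tumour 2, 3 of 17 tested members were higher at that threshold (1.76% of all genes in that fit). It was 4 of 16 without vehicle tumour 3 (4.66%) and 2 of 16 without vehicle tumour 1, for which no share is given. More members passed the filter in these fits, so the counts are not directly comparable with the 7 of 12.

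Several of the largest folds came from the same library, RP-6306 tumour 2. Folds were ranked among genes with an unadjusted p under 0.05, an average log2 CPM not under 1 and no predicted gene name. The 5 largest positive log2 fold changes belonged to Ighg1, Igkc (4.09 ± 1.54), the B cell surface gene Ms4a1 (3.83 ± 1.62), the antibody joining chain gene Jchain (3.44 ± 1.33) and Ly6d, a surface antigen of early B cells and epithelium (3.13 ± 0.98). Each had its highest value in RP-6306 tumour 2. The 5 largest negative values belonged to the growth factor gene Igf2 (-1.80 ± 0.51), the cadherin gene Dchs2 (-1.78 ± 0.48), the metabolite receptor gene Hcar2 (-1.74 ± 0.57), Adm, and Rerg, of a Ras-like growth inhibitor (-1.65 ± 0.46). Igf2 was at 0.600, 1.98, 2.14 and 3.32 CPM in RP-6306 tumours, against 6.47, 11.2 and 3.40 CPM in vehicle tumours. All of these but Dchs2 were highest in vehicle tumour 2. In vehicle tumours Hcar2 had 2.80, 7.09 and 0.996 CPM and Rerg 11.3, 22.7 and 4.60 CPM, and both overlapped the RP-6306 values. With libraries left out, the log2 fold change ran from -2.18 to -0.80 for Hcar2 and from -2.05 to -0.94 for Rerg.

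T cell genes had a median of 0.97 over 27 tested members, of which 24 were positive (51.3% of all genes) and 5 were higher with an unadjusted p under 0.05 (2.55%). Ctla4, Icos, Cd4 and Cd247, 4 of the 27, lay above the vehicle values without overlap (3.09%). Their sum was 154, 225, 131 and 137 CPM in RP-6306 tumours, against 132, 97.3 and 109 CPM in vehicle tumours. RP-6306 tumour 2 was highest, and RP-6306 tumour 3 was level with vehicle tumour 1. Ctla4, an inhibitory receptor of T cells, had 1.05, 0.890, 1.18 and 1.06 CPM in RP-6306 tumours, against 0.492, 0.390 and 0.412 CPM in vehicle tumours (1.27 ± 0.40), and its log2 fold change stayed between 1.20 and 1.37 with any 1 library left out. Icos, a T cell costimulator, had 1.54, 2.56, 1.59 and 2.30 CPM in RP-6306 tumours, against 1.21, 0.975 and 0.447 CPM in vehicle tumours (1.19 ± 0.41). These are low levels, and the adjusted p was 0.713 for Ctla4 and 0.762 for Icos in edgeR's quasi-likelihood test. Thy1, which T cells and fibroblasts share, was at 0.66 ± 0.25. Without RP-6306 tumour 2, the median was 0.44. In that fit 3 of 27 were higher with an unadjusted p under 0.05 (2.35% of all genes) and 4 of 27 did not overlap (5.44%). The median was 0.51 without vehicle tumour 2, with 3 of 27 higher at that threshold (1.76%), and without RP-6306 tumour 1 it was 1.12.

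Genes of cytotoxic and NK cells followed the interferon genes by library. Their sum was 47.6, 89.3, 94.2 and 57.6 CPM in RP-6306 tumours, against 43.3, 31.9 and 70.9 CPM in vehicle tumours, with RP-6306 tumours 2 and 3 high and vehicle tumour 3 above the other RP-6306 tumours. The median was 0.72 over 16 tested of 18, with 2 higher at an unadjusted p under 0.05 (2.55% of all genes) and 0 above the vehicle values without overlap (3.09%). These were the NK receptor genes Klrk1 (0.87 ± 0.38) and Klrd1 (1.06 ± 0.47), and next came the chemokine gene Ccl5 (0.44 ± 0.22). Both calls were lost without RP-6306 tumour 2, without RP-6306 tumour 3, without vehicle tumour 1 and without vehicle tumour 2, where 0 genes had an unadjusted p under 0.05. The median was 0.66 without RP-6306 tumour 2, 0.38 without vehicle tumour 2 and 0.18 without both. It was 1.37 without vehicle tumour 3, where 9 of 16 were higher with an unadjusted p under 0.05 (4.66% of all genes in that fit).

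**Figure D4:**
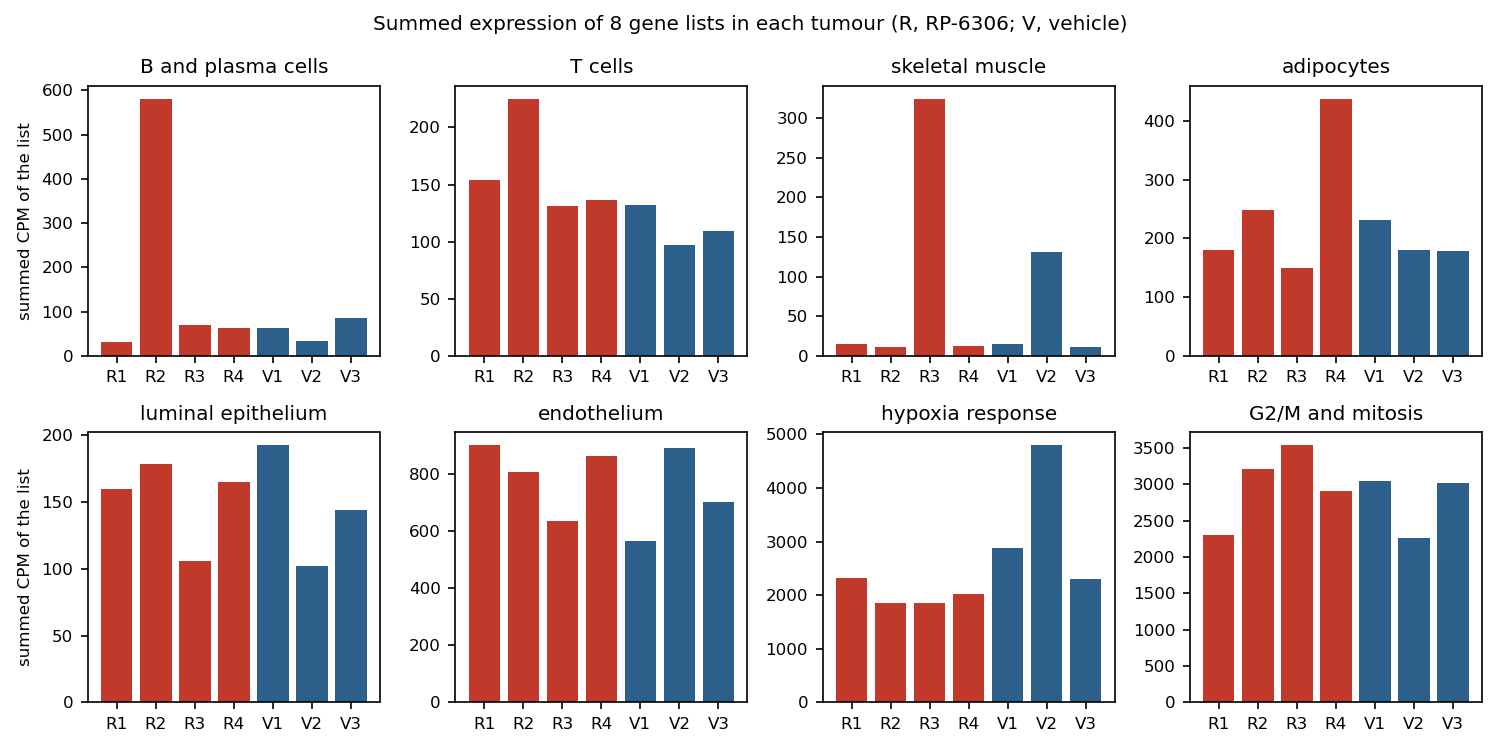
Summed CPM of 8 gene lists in each tumour, with RP-6306 tumours 1 to 4 in red (R1 to R4) and vehicle tumours 1 to 3 in blue (V1 to V3). Each axis starts at 0. The B and plasma cell sum of R2 (581 CPM) and the skeletal muscle sum of R3 (324 CPM) stand alone in their group, while the hypoxia sum is highest in V2 (4796 CPM) and the G2/M sums of the groups overlap.

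Some markers of dendritic cells, which present antigen to T cells, had higher values. Of 14 tested genes, 5 were higher with an unadjusted p under 0.05 (2.55% of all genes) and 4 lay above the vehicle values without overlap (3.09%), with a median of 0.33. The sum of the list was 753, 788, 725 and 753 CPM in RP-6306 tumours, against 778, 686 and 674 CPM in vehicle tumours. Vehicle tumour 1 lay above 3 of the 4 RP-6306 tumours. Siglech and Ccr9 are markers of plasmacytoid dendritic cells, the main source of type I interferon. Ccr9 had 1.58, 1.32, 1.43 and 1.06 CPM in RP-6306 tumours, against 0.605, 0.553 and 0.653 CPM in vehicle tumours (1.15 ± 0.37). Siglech had 1.54, 2.27, 2.61 and 2.36 CPM in RP-6306 tumours, against 1.13, 0.910 and 1.48 CPM in vehicle tumours (0.90 ± 0.33). Itgax, the integrin CD11c, had 30.0, 30.0, 34.8 and 32.8 CPM in RP-6306 tumours, against 27.3, 27.2 and 20.99 CPM in vehicle tumours (0.34 ± 0.13). The other gene without overlap was Flt3, a growth factor receptor of dendritic cells, at 0.62 ± 0.26. With each library left out in turn, 4 to 9 of the 14 did not overlap, beside 4.34% to 9.61% of all genes, and the median ran from 0.25 to 0.47. In those fits 2 to 4 were higher with an unadjusted p under 0.05, a count given without the share of all genes. Expression of Irf8, a factor shared with macrophages, was at -0.13 ± 0.11 and Batf3, of conventional dendritic cells, at -0.40 ± 0.28.

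Macrophage genes were the most abundant list of an immune cell type and had mostly negative values, with a median of -0.17. Of 24 tested, 19 were negative (48.7% of all genes), 6 were lower (3.63%) and 1 was higher (2.55%) with an unadjusted p under 0.05, and 3 lay below the vehicle values without overlap (3.62%). The number lower with an unadjusted p under 0.05 was 3 without RP-6306 tumour 2, without RP-6306 tumour 3 and without vehicle tumour 1, and 5 to 8 without each of the other libraries. These counts are given without the share of all genes in each fit. The sum overlapped, at 10545, 8310, 8149 and 9644 CPM in RP-6306 tumours, against 9766, 9832 and 9414 CPM in vehicle tumours. Vsig4, a complement receptor of resident macrophages, had 1.76, 1.29, 2.04 and 1.24 CPM in RP-6306 tumours, against 4.05, 4.10 and 2.37 CPM in vehicle tumours (-1.15 ± 0.31). Csf1r, the receptor for the growth factor of macrophages, was at 549, 381, 449 and 568 CPM in RP-6306 tumours, against 618, 619 and 644 CPM in vehicle tumours (-0.37 ± 0.14). Both were lower in every RP-6306 tumour than in any vehicle tumour. Arg1, the arginase that is also induced by hypoxia, was at 15.5 to 33.7 CPM in RP-6306 tumours, against 60.0, 78.0 and 23.2 CPM in vehicle tumours (-1.18 ± 0.37), and Folr2, a folate receptor, was at -0.60 ± 0.22. The 1 higher gene was Fcgr1, an antibody receptor induced by interferon, at 0.36 ± 0.15. Csf1r and Fcgr1 were named after their values had been seen.

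Vessel markers had mostly small positive values. Of 20 endothelial genes, 16 were positive (51.3% of all genes), 3 were higher with an unadjusted p under 0.05 (2.55%) and 3 lay above the vehicle values without overlap (3.09%), with a median of 0.25. Tek, the angiopoietin receptor, had 11.1, 10.1, 8.89 and 11.95 CPM in RP-6306 tumours, against 6.01, 8.55 and 6.35 CPM in vehicle tumours (0.59 ± 0.18). Kdr, the main receptor for VEGF, had 46.8, 53.7, 40.3 and 55.0 CPM in RP-6306 tumours, against 26.9, 39.8 and 40.3 CPM in vehicle tumours (0.46 ± 0.17), where RP-6306 tumour 3 was only just above vehicle tumour 3. Egfl7, an endothelial matrix protein gene, was at 0.41 ± 0.18. The summed level overlapped, at 902, 808, 635 and 864 CPM in RP-6306 tumours, against 567, 893 and 703 CPM in vehicle tumours. Without vehicle tumour 2, all 20 were positive, the median was 0.39, and 5 of 20 were higher with an unadjusted p under 0.05 (1.76% of all genes in that fit). Without vehicle tumour 1, 12 were positive, the median was 0.11 and 1 of 20 passed that threshold, and without RP-6306 tumour 1 these values were 14, 0.15 and 2. Without RP-6306 tumour 3 the median was 0.33 with 8 of 20. Without RP-6306 tumour 2, 1 of 20 passed (2.35% of all genes in that fit), as did 1 of 20 without RP-6306 tumour 4. The share of all genes is not given for the fits without vehicle tumour 1 or without RP-6306 tumours 1, 3 and 4.

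Pericytes and smooth muscle surround those vessels. Rgs5, a pericyte gene that dampens G protein signals, had 73.5, 81.5, 61.1 and 62.3 CPM in RP-6306 tumours, against 46.7, 45.9 and 53.3 CPM in vehicle tumours (0.52 ± 0.13, interval 0.23 to 0.80). Myh11, the smooth muscle myosin, had 4.39, 4.88, 4.56 and 4.60 CPM in RP-6306 tumours, against 3.48, 1.20 and 2.51 CPM in vehicle tumours (0.95 ± 0.33). The RP-6306 values of Myh11 were nearly equal, and neither gene overlapped. They were the 2 of 13 tested pericyte and smooth muscle genes that were higher with an unadjusted p under 0.05 (2.55% of all genes), the list's median was 0.23, and Notch3, a receptor of mural cells, was at 0.25 ± 0.15.

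Markers of fat and skeletal muscle were concentrated in a few libraries. Adipocyte genes had a median of 1.35 over 16 tested of 19, and 14 of 16 were highest in RP-6306 tumour 4, without which the median was 0.33. The adipokine gene Adipoq had 0.337, 3.50, 0 and 8.45 CPM in RP-6306 tumours, against 0.454, 0.228 and 0.172 CPM in vehicle tumours (3.43 ± 1.40), and Lpl, lipoprotein lipase, was at 0.79 ± 0.25. Cebpa, a factor that adipocytes share with myeloid cells, went the other way, at 68.7, 64.0, 58.2 and 72.5 CPM in RP-6306 tumours, against 89.4, 87.0 and 78.0 CPM in vehicle tumours (-0.36 ± 0.11) with no overlap. Skeletal muscle genes summed to 324 CPM in RP-6306 tumour 3 and 130 CPM in vehicle tumour 2 and to at most 15.3 CPM elsewhere, and 0 of 13 tested had an unadjusted p under 0.05. Muscle myosin Myh4 had 51.5 CPM in RP-6306 tumour 3 and 2.34 CPM in vehicle tumour 2, while muscle actin Acta1 had 83.0 and 47.0 CPM there, and the giant sarcomere protein gene Ttn 39.3 and 20.8 CPM.

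**Figure D5:**
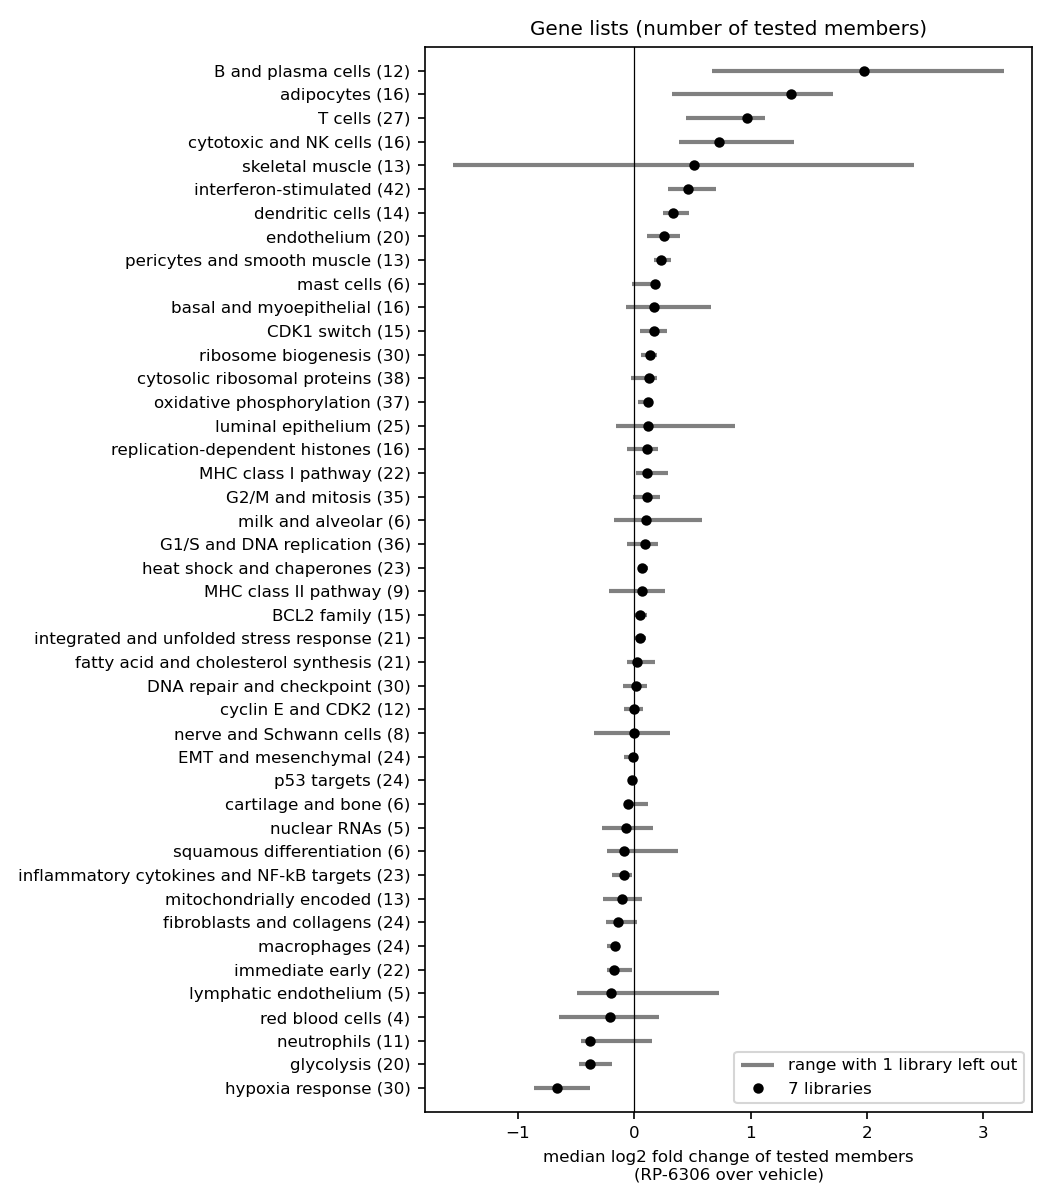
Median log2 fold change of the tested members of each gene list, RP-6306 over vehicle (points), with the range of the median when each library was left out in turn (bars). The number of tested members stands beside each name. The hypoxia and glycolysis bars stay under 0 and the interferon, T cell and dendritic cell bars stay above it, while the bar of skeletal muscle covers both signs.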

How the data were processed

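RNA was extracted from tumour tissue with Trizol and sequenced by a commercial provider, per the labels' protocols. The deposited table of read counts, whole numbers for 54532 genes, was the source of every result. STAR 2.7.10a, HTSeq and edgeR on GRCm38 are named in the submitters' processing notes, without their roles. The library kit, its strandedness and the annotation release are not given in the sources used here, so reads of overlapping and antisense genes cannot be told apart. A second deposited table held log2 CPM by the authors, which differed by 0.0576 from log2 CPM recomputed here, both as the median and as the maximum, and it was not used further. There were 0 sample columns outside the series. Of the rows, 791 had no symbol and held 0.0483% of the counts.

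Only the 7 libraries entered the fit, made in R 4.3.3 by edgeR 4.0.16 with filterByExpr, TMM scaling and its quasi-likelihood F-test (glmQLFit, glmQLFTest), with Benjamini-Hochberg adjustment over 16699 genes and a threshold of 0.05. Standard errors were taken from the F statistic, and intervals are 95% intervals. CPM values were scaled with TMM factors of 0.960 to 1.02. Sums of CPM over a list include members that were not tested. Levels per kilobase used merged exons. All pairs of libraries within a group differed by more than sampling noise (chi-square per degree of freedom 19.3 to 70.7, over genes with at least 10 counts), so each counted as 1 sample.

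There were 44 gene lists with 916 entries, of which 915 matched a symbol, and 3 symbols with several identifiers were represented by the one with most counts. The members and lists were chosen with earlier results of these data known. Lists are described by counts and medians beside all tested genes, without a test of their own. The rule for names took all CDK1 and cyclin E genes, the 10 smallest p in each direction, the 5 largest folds in each direction among genes with an unadjusted p under 0.05, in both cases with an average log2 CPM not under 1 and no predicted gene names, the 3 members with the smallest p of each list described, the 3 highest members where the summed CPM of a cell type in 1 library exceeded 2 times that of every other library of its group, and the 10 smallest DESeq2 p. A few genes that the rule names are not reported here. Other names were chosen once their values were known.

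GENCODE M21 supplied gene positions (54409 identifiers were found in it) and RefSeq the promoters. The alternatives were DESeq2 1.42.0, its size factors, no filter, limma 3.58.1 voom without and with sample weights, 1 fit over all 32 libraries that have a group, and leaving out 1 library at a time. The joint omission of RP-6306 tumour 2 and vehicle tumour 2 was chosen after seeing the data. The edgeR fit with either scaling, DESeq2 and both voom fits were also tested on simulated counts. The fits without the filter, over 32 libraries and with libraries left out were not.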

Additional observations from a re-analysis of the deposited data

Results flagged for a closer look

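Of 151 groups of 4 RP-6306 values examined, 19 (12.6%) had 1 tumour far from the other 3 (Dixon's gap to range ratio past its 95% critical value). Some of the genes examined had been named because their list was high in 1 library, and list sums include named genes. The share therefore cannot be set against the 1 in 20 that chance gives for independent groups. The 3 vehicle tumours are too few for this rule.

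RP-6306 tumour 2 stood apart for lymphocyte genes, with 161 CPM of Igkc, 119 CPM of Ighg1, 29.1 CPM of Jchain, 15.8 CPM of Cd22, 14.9 CPM of Ms4a1, 11.1 CPM of Ly6d and a sum of 581 CPM over the B and plasma cell list. It also had 16.0 CPM of Aoc3. Its sum over the genes of the integrated and unfolded stress response, 2255 CPM, was apart only within its group, since vehicle tumour 1 had 2270 CPM. RP-6306 tumour 2 also had the low sum of 1406 CPM over nuclear RNAs such as Malat1. The sums of those nuclear RNAs were 3029, 3182 and 3213 CPM in the other RP-6306 tumours, against 1873, 3859 and 3106 CPM in vehicle tumours.

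RP-6306 tumour 3 stood apart for skeletal muscle, with 83.0 CPM of Acta1, 51.5 CPM of Myh4, 39.3 CPM of Ttn, 11.1 CPM of Myh1 and a sum of 324 CPM over the list. Vehicle tumour 2 had 47.0 CPM of Acta1, 20.8 CPM of Ttn and 13.6 CPM of Myh1.

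RP-6306 tumour 4 stood apart within its group for red cells, with 52.1 CPM of the globin gene Hba-a1, 1.93 CPM of the haem synthesis gene Alas2 and a sum of 90.3 CPM over the list. Vehicle tumour 2 was close to it, with 42.2 CPM of Hba-a1, 1.95 CPM of Alas2 and a sum of 82.9 CPM. Globin genes have near-identical copies, so their counts are uncertain. RP-6306 tumour 1 had the highest sum of pericyte and smooth muscle genes in its group, 963 CPM.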

How the results depend on the processing

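The numbers of replicates come from accession order. No paired analysis was possible because the labels give the 2 groups no shared replicate numbers. No edgeR or limma fit of the 7 libraries with the filter passed any gene, nor did the fit over 32 libraries or the fits with libraries left out, whereas DESeq2 called 47 genes and edgeR without the filter called 6. Genes at an unadjusted edgeR p under 0.05 numbered 322 in the fit over 32 libraries and 633 to 1642 with libraries left out, lowest without vehicle tumour 2 and highest without vehicle tumour 3. Genes without overlap numbered 1526 to 3351 with libraries left out, which is partly by construction, since fewer tumours overlap less.

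The ranges that follow are over 8 fits, with each library left out and with RP-6306 tumour 2 and vehicle tumour 2 both left out. List medians (log2 fold change) ran from -0.47 to -0.18 for glycolysis, -0.04 to 0.16 for oxidative phosphorylation, -0.11 to 0.20 for cytosolic ribosomal proteins, 0.01 to 0.12 for heat shock and chaperones, 0.19 to 1.12 for T cells, 0.18 to 1.37 for cytotoxic and NK cells, 0.37 to 3.18 for B and plasma cells, -0.46 to 0.23 for neutrophils, -0.41 to 0.22 for mast cells, -0.25 to 0.10 for fibroblasts and collagens and -0.24 to 0.38 for squamous differentiation. Squamous genes were at -0.52 without the filter. The other 641 values of list medians and of counts over all genes moved by less than the spread between replicates (medians) or stayed within 1.5 times (counts). Under this rule a list with a wide spread can still move far and change sign. Examples are skeletal muscle (-1.56 to 2.4) and luminal epithelium (-0.30 to 0.87). Numbers of members called within a list moved further in several lists, for example among interferon-stimulated genes (12 with all 7 libraries, 0 to 32 with libraries left out). Causes were not tested.

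Single genes changed sign when libraries were left out. Among CDK1, cyclin E and replication genes the log2 fold change ran from -0.09 to 0.42 for Pkmyt1, -0.10 to 0.10 for Wee1, -0.10 to 0.28 for Cdk1, 0.00 to 0.41 for Ccnb1, -0.06 to 0.34 for Ccnb2, -0.04 to 0.29 for Ccna2, -0.06 to 0.40 for Aurka, -0.23 to 0.15 for Ccnf, -0.11 to 0.39 for Cks1b, -0.29 to 0.27 for Ccne1, -0.36 to 0.01 for Ccne2, -0.23 to 0.05 for Cdkn1a, -0.14 to 0.07 for Fbxw7, -0.16 to 0.14 for E2f1, -0.15 to 0.15 for E2f2 and -0.06 to 0.34 for Rpa2. Among genes of the libraries that stood apart it ran from -0.84 to 0.43 for Ighm, -0.63 to 0.28 for Pdpn, -0.56 to 0.82 for Flt4, -0.60 to 0.26 for Lyve1, -5.20 to 6.59 for Acta1, -1.56 to 2.0 for Ttn, -2.26 to 2.06 for Myh1, -0.59 to 0.33 for Hba-a1, -0.65 to 0.25 for Hbb-bs and -0.63 to 0.63 for Alas2. Under limma voom the values were 0.00 for Ccnf, -0.01 for Ighm, -0.30 for Acta1 and -0.17 for Ttn. With sample weights they were 0.06 for Wee1, -0.08 for Ccnf, 0.00 for E2f1, -0.22 for Ighm, 0.01 for Pdpn, 0.34 for Flt4, 0.28 for Hba-a1, 0.15 for Hbb-bs and 0.37 for Alas2, and in the fit over 32 libraries Ccnf was at -0.01.

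With 4 and 3 tumours, the median SE of the log2 fold change was 0.18, and the median 95% interval was 0.79 wide from its lower to its upper bound.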

Other observations

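Genes of ribosome production had small positive values in most cases. Of 30 ribosome biogenesis genes, 29 were positive with a median log2 fold change of 0.14, and 1 was higher with an unadjusted edgeR p under 0.05, beside 2.55% of all genes. That gene was Bysl, which helps to assemble the small ribosomal subunit, at 43.4, 49.3, 48.4 and 44.0 CPM in RP-6306 tumours, against 42.4, 32.9 and 39.4 CPM in vehicle tumours (0.28 ± 0.12), and its groups did not overlap. Without vehicle tumour 2 the median was 0.06 and 19 of 30 were positive. Among 38 genes of cytosolic ribosomal proteins the median was 0.13, and -0.03 without RP-6306 tumour 2.

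Matrix genes differed in both directions. Col5a2, a fibrillar collagen gene, had 741, 513, 547 and 540 CPM in RP-6306 tumours, against 910, 1505 and 728 CPM in vehicle tumours (-0.84 ± 0.23), whereas Lum, a proteoglycan that orders collagen fibrils, had 51.7, 47.1, 77.2 and 36.6 CPM in RP-6306 tumours, against 27.2, 37.8 and 36.0 CPM in vehicle tumours (0.66 ± 0.23). RP-6306 tumour 1 overlapped vehicle tumour 3 for Col5a2, and RP-6306 tumour 4 overlapped vehicle tumour 2 for Lum. Prrx1, a transcription factor of mesenchyme, was at 277, 231, 277 and 269 CPM in RP-6306 tumours, against 371, 394 and 299 CPM in vehicle tumours (-0.43 ± 0.12), with no overlap. These genes were chosen after their values had been seen.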
